A study of Homo sapiens with 3 samples.

Results

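NRF2, encoded by NFE2L2, is the transcription factor that turns on genes of antioxidant defense, and 9 genes of its pathway were followed here in ribosome footprint libraries (Ribo-seq, sequencing of the mRNA fragments that ribosomes shield from nuclease). The genes were chosen by name from the 63241 genes of the footprint count table. They are NFE2L2, its inhibitor KEAP1, and the target genes NQO1, HMOX1, GCLC, GCLM, TXNRD1, TXN and SRXN1. All 9 were among the 19820 genes with enough footprints to be tested. The cells were HEK293T, a human embryonic kidney line whose SV40 large T antigen, of viral origin, binds p53. Each group expressed 1 p53 construct, either WT p53 or mut p53 with the hotspot change G245S or R273H in the DNA-binding domain. There were 3 groups of 3 dishes (n = 3 dishes per group), and every dish received cycloheximide for 2 min before harvest. The study's methods describe lentiviral lines kept under puromycin, whereas the labels call the cells both stable and transiently transfected and name the wt construct in the treatment of the mutants. Groups were therefore taken from the sample titles.

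In unstressed cells KEAP1 holds NRF2 in the cytoplasm and presents it to the CUL3 ubiquitin ligase, so that NRF2 is degraded as it is made. Oxidants and electrophiles modify cysteines of KEAP1, newly made NRF2 then escapes, enters the nucleus, pairs with a small MAF protein and binds antioxidant response elements in its target genes. Because this control acts on the NRF2 protein, footprints on NFE2L2 report how much NRF2 was being made and not how much was present or active. The targets supply glutathione (GCLC and GCLM), reduce protein disulfides (TXN and TXNRD1), restore overoxidized peroxiredoxins (SRXN1), reduce quinones (NQO1) and break down heme (HMOX1).

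The antioxidant response element is the DNA sequence that NRF2 binds, so the promoters of the members were searched for its core, TGACNNNGC, on both strands. RefSeq promoters (GRCh38.p14, 300 bases from 250 before to 50 after a gene's start) were at hand for 8 members, and HMOX1 had no entry. The core was in 13.3% of all 35116 promoter windows and in 4 of the 11 windows of the members, those of KEAP1, GCLM and TXNRD1. The windows below are shown because they hold the cores found. Each is written 5′ to 3′ on the strand of the gene with the core in capitals, so a core on the opposite strand appears as its reverse complement.
KEAP1 second start, core on the gene strand, chr19:10502802-10502840, minus strand: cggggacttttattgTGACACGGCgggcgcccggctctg
KEAP1 second start, core on the opposite strand, chr19:10502779-10502817, minus strand: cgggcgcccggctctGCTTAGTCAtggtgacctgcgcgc
GCLM, core on the opposite strand, chr1:93909441-93909479, minus strand: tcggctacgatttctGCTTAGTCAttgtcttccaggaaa
TXNRD1 first start, core on the gene strand, chr12:104215665-104215703, plus strand: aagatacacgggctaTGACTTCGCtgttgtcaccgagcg
TXNRD1 first start, core on the opposite strand, chr12:104215756-104215794, plus strand: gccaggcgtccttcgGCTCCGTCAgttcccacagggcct
TXNRD1 second start, core on the opposite strand, chr12:104286915-104286953, plus strand: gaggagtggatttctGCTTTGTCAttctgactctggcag
None of these cores overlapped the AP-1 site TGACTCA. The GCLM core and the downstream KEAP1 core read the same letters. No match was found in the windows of NFE2L2, NQO1, GCLC, TXN and SRXN1, which says only that these letters were not in those 300 bases.

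The 9 libraries held 18.7 to 24.6 M expected footprint counts, and values are given as CPM, counts normalised to library size. Genes were tested with edgeR's quasi-likelihood test, and those with an adjusted p under 0.05 (Benjamini-Hochberg, over all 19820 genes) are referred to as called. MDM2 and CDKN1A, both direct targets of WT p53, served as a check of the WT label against the mutant labels. This check cannot tell which mutant group is G245S and which is R273H. Footprints on MDM2 were lower in G245S than in WT by a log2 fold change of -3.48 and in R273H by -3.49, and those on CDKN1A by -1.92 and -2.14. All 7 markers of an epithelial or embryonic kidney line passed the filter, with a summed level of 1306 to 1429 CPM. Most of that sum was VIM and CDH2, with WT means of 884 and 268 CPM. KRT18 and KRT8 were at 116 and 33.9 CPM in WT. Of 9 markers of other cell types only COL1A1 and LUM passed it, and the summed level of the 9 was 40.3 to 49.1 CPM. In WT, CDH1, PAX2 and EPCAM, at 6.66, 5.43 and 3.91 CPM, were lower than COL1A1 at 32.5 and LUM at 14.5 CPM. The dishes of 1 group were pooled at reverse transcription, so group and pool cannot be told apart in any comparison below. The p-values measure the spread between dishes of the same pool.

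Between mut p53 and WT p53 the NRF2 pathway genes differed little, and they did not move as a unit. Footprints on NQO1 were lower in both mutants and those on TXNRD1 were higher in both. In G245S alone NFE2L2 passed the test as higher and GCLM as lower, although the difference between the mutants did not pass the test for either gene. Differences ran from a log2 fold change of -0.32 to 0.11. For G245S against WT 4 of the 9 members were called, 2 higher and 2 lower, beside 24.7% of all genes tested (12.6% higher and 12.1% lower) and 33.1% of the 12653 genes whose mean count reached 100. For R273H against WT 2 members were called, 1 in each direction, beside 28.8% of all genes tested (14.2% higher and 14.6% lower) and 37.6% of those whose mean count reached 100. The median log2 fold change of the members was 0.056 in G245S and 0.0099 in R273H, beside -0.00069 and -0.0024 over all genes tested. Both comparisons share the WT dishes, and the members were chosen with earlier results of these data known.

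**Figure D1:**
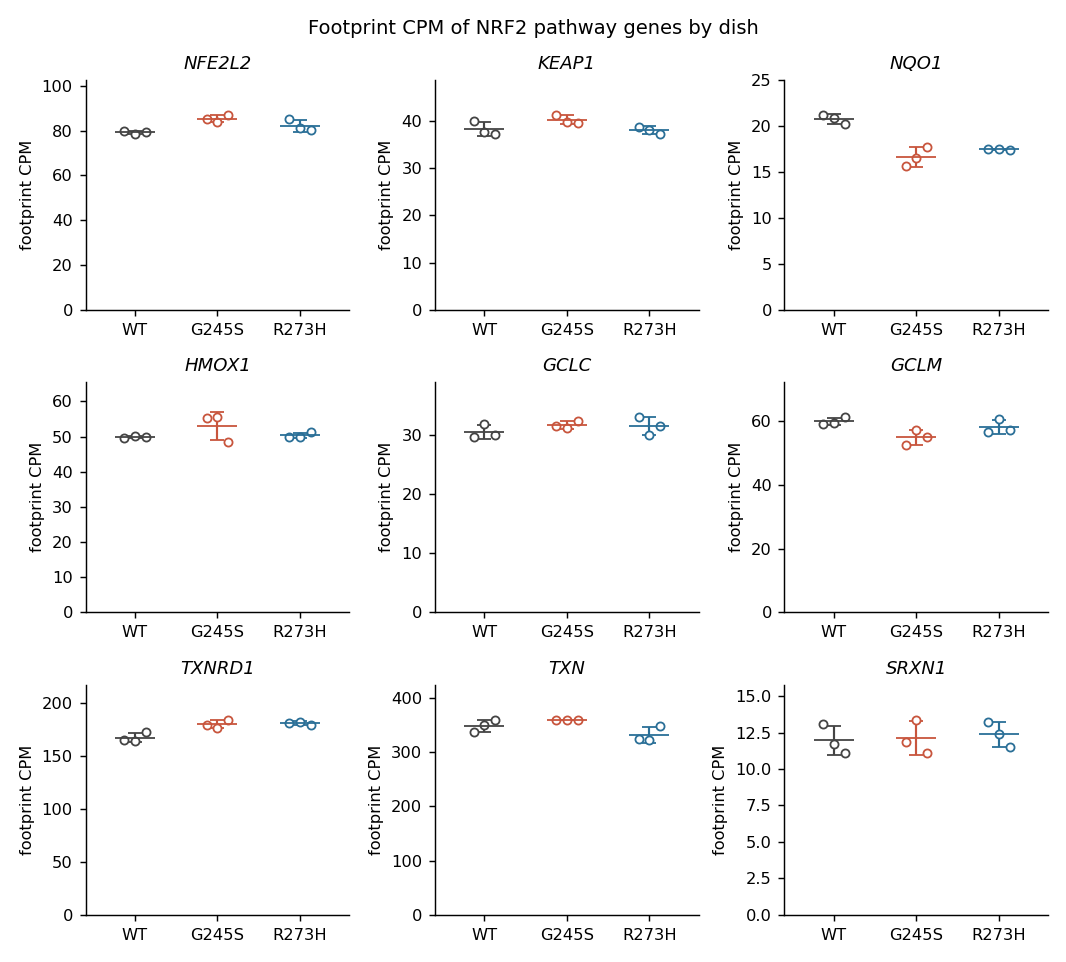
Footprint CPM (y axis, from 0) of each NRF2 pathway gene in the WT, G245S and R273H groups (x axis). Open circles are single dishes, and the horizontal line with bars is the mean ± SD of 3 dishes. The NQO1 dishes of both mutants, 15.7 to 17.7 CPM, sit below the WT dishes, 20.3 to 21.2 CPM, whereas for KEAP1, HMOX1, GCLC and SRXN1 the dishes of each mutant overlap those of WT.

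Per coding length, the order of the members was dominated by TXN. In WT, TXN held 1106 ± 36.1 CPM per kb of coding length (SD, n = 3), 12.8 times the level of TXNRD1 at 86.1 ± 2.22 CPM per kb, the next in order. GCLM followed at 73.0, HMOX1 at 57.8 and NFE2L2 at 43.7 CPM per kb. Then came SRXN1 at 29.1, NQO1 at 25.3, KEAP1 at 20.5 and GCLC at 15.9 CPM per kb. No neighbours in this order overlapped over the WT dishes. R273H had the same order, again without overlap, but NQO1 and KEAP1 stood only 1.05-fold apart. In G245S KEAP1 stood above NQO1 by 1.06-fold and GCLM above HMOX1 by 1.09-fold, and in both of these pairs the dishes overlapped. Lengths are coding lengths of Ensembl canonical transcripts, and counting over the coding region alone is not stated in the sources used here.

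**Figure D2:**
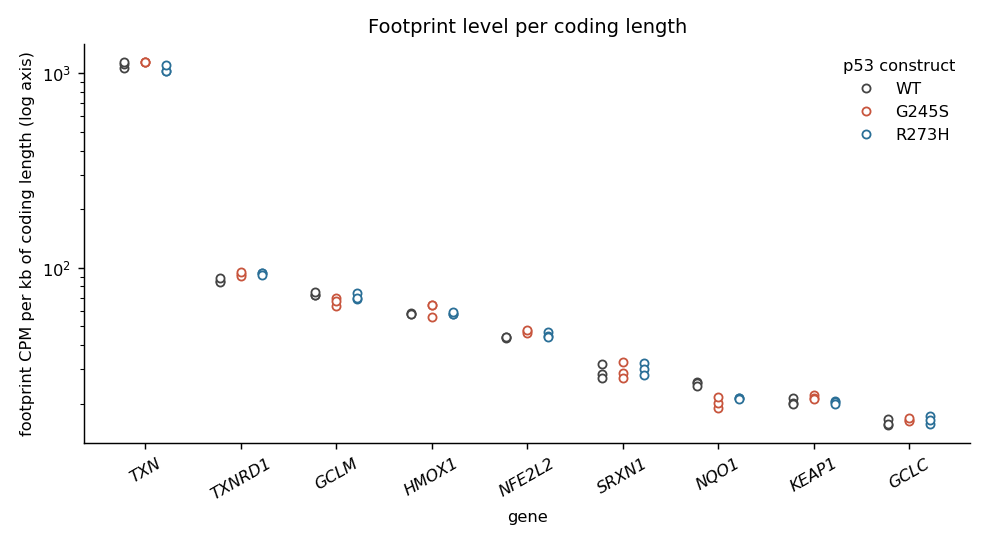
Footprint CPM per kb of coding length (y axis, log scale) for the 9 genes (x axis), ordered by their WT level. Each circle is 1 dish, colored by p53 construct. TXN stands at 1024 to 1140 CPM per kb over all dishes, and GCLC is lowest, with a mean of 15.9 CPM per kb in WT.

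NFE2L2 (chr2:177218667-177392756, minus strand, GRCh38, GENCODE annotation) encodes NRF2 itself. Its footprint level was 79.7, 78.6 and 79.4 CPM in the WT dishes, 85.4, 83.7 and 87.0 CPM in the G245S dishes and 85.2, 81.0 and 80.3 CPM in the R273H dishes. Every mutant dish was above every WT dish, and the mutants overlapped each other. The log2 fold change was 0.11 ± 0.0367 (SE) in G245S, or 7.79% higher, with an edgeR adjusted p of 0.0302. In R273H it was 0.05 ± 0.036, with an edgeR adjusted p of 0.302. The call in G245S was lost without WT dish 1 (edgeR adjusted p = 0.0564), WT dish 2 (0.0927), G245S dish 1 (0.0578) or G245S dish 3 (0.0875), and with DESeq2 (0.108). The gene body overlaps HNRNPA3 and AGPS on the opposite strand, which averaged 692 and 155 CPM, and the handling of strand in the counts is not stated in the sources used here.

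KEAP1 (chr19:10486125-10503558, minus strand), the substrate adaptor that delivers NRF2 to CUL3, showed no called difference. It held 40.1, 37.7 and 37.1 CPM in WT, 41.3, 39.9 and 39.5 CPM in G245S and 38.8, 38.2 and 37.3 CPM in R273H. The G245S dishes overlapped WT and lay above all R273H dishes. For G245S against WT the 95% interval of the log2 fold change was -0.03 to 0.17, and for R273H against WT it was -0.11 to 0.09. The direction of the R273H value changed with the normalization. The ratio of NFE2L2 to KEAP1 footprints per codon, factor over inhibitor, was 2.14 ± 0.0772 in WT, 2.19 ± 0.0731 in G245S and 2.22 ± 0.0397 in R273H (SD, n = 3). A two-sided exact permutation test against WT gave p = 0.5 for G245S and p = 0.2 for R273H (0.5 for both after adjustment over 6 ratio comparisons). With 3 dishes against 3 the smallest p this test can give is 0.1, so it could not pass 0.05 for any difference.

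NQO1 (chr16:69706996-69726668, minus strand) encodes NAD(P)H quinone dehydrogenase, a flavoenzyme that reduces quinones and a classical NRF2 target. It had the largest difference of the 9 genes in both mutants. The WT dishes held 21.2, 20.9 and 20.3 CPM, the G245S dishes 15.7, 16.5 and 17.7 CPM and the R273H dishes 17.5, 17.6 and 17.4 CPM. All 6 mutant dishes were below all 3 WT dishes, and the mutants overlapped. NQO1 footprints fell by 19.8% in G245S, a log2 fold change of -0.32 ± 0.0683 (edgeR adjusted p = 0.000855). In R273H they fell by 15.9%, a log2 fold change of -0.25 ± 0.0656 (edgeR adjusted p = 0.00462), and DESeq2 gave an adjusted p of 0.0565 for this comparison. A test of whether the change exceeded 1.2-fold (glmTreat) called NQO1 in neither mutant.

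HMOX1 (chr22:35380361-35394214, plus strand), the inducible enzyme that opens the heme ring, showed no called difference over all dishes. It was at 49.7, 50.3 and 49.9 CPM in WT, 55.3, 55.5 and 48.4 CPM in G245S and 49.8, 49.9 and 51.3 CPM in R273H. G245S dish 3 lay below every WT dish, while the other two G245S dishes lay above them. The log2 fold change was 0.08 ± 0.0488 in G245S (edgeR adjusted p = 0.228) and 0.01 ± 0.0479 in R273H (edgeR adjusted p = 0.904). Without G245S dish 3 the value for G245S was 0.15 and was called (edgeR adjusted p = 0.0172).

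GCLC and GCLM encode the catalytic and the modifier subunit of glutamate-cysteine ligase, the rate-limiting enzyme of glutathione synthesis. GCLC (chr6:53497341-53616970, minus strand) was at 29.6, 31.8 and 30.0 CPM in WT, 31.4, 31.1 and 32.4 CPM in G245S and 32.9, 30.0 and 31.5 CPM in R273H. The groups overlapped, and the 95% interval of the log2 fold change was -0.06 to 0.17 in G245S and -0.06 to 0.16 in R273H. GCLM (chr1:93885199-93909456, minus strand) held 59.2, 59.5 and 61.3 CPM in WT, 52.5, 57.2 and 55.1 CPM in G245S and 56.6, 60.7 and 57.3 CPM in R273H. All G245S dishes were below all WT dishes, whereas R273H overlapped both. GCLM footprints fell by 8.40% in G245S, a log2 fold change of -0.13 ± 0.0441 (edgeR adjusted p = 0.0350). The R273H log2 fold change was -0.04 ± 0.0427 (edgeR adjusted p = 0.485).

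Of the members' calls, that of GCLM in G245S held in the fewest alternative settings, 7 of 18, and the log2 fold change lay between -0.16 and -0.09 over all 18. The call was lost on leaving out any WT dish (edgeR adjusted p = 0.0524, 0.0696 and 0.118 without dishes 1, 2 and 3), or G245S dish 1 (0.183) or dish 3 (0.0768). GCLC footprints per codon were 0.218 ± 0.0101 of those of GCLM in WT, 0.248 ± 0.0127 in G245S and 0.233 ± 0.0192 in R273H (SD, n = 3). Every G245S dish, 0.234 to 0.258, had a higher ratio than every WT dish, 0.210 to 0.230. The two-sided exact permutation test gave p = 0.1, the smallest it allows, or 0.5 adjusted over the 6 ratio comparisons, and so did not pass 0.05.

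TXNRD1 (chr12:104215779-104350307, plus strand), the cytosolic selenoenzyme that keeps thioredoxin reduced, was higher in both mutants by similar amounts. Its level was 166, 165 and 173 CPM in WT, 180.0, 177 and 184 CPM in G245S and 182, 183 and 179 CPM in R273H. No mutant dish overlapped WT, and the mutants overlapped each other. The log2 fold change was 0.11 ± 0.0292 in G245S (7.68% higher, edgeR adjusted p = 0.0074) and 0.11 ± 0.0287 in R273H (8.08% higher, edgeR adjusted p = 0.00374). Of the 18 alternative settings, only glmTreat lost either call. The gene body holds RPL18AP3 on the same strand, a pseudogene of a ribosomal protein, which took 86.1 to 101 CPM per library.

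TXN (chr9:110243810-110256507, minus strand) encodes thioredoxin, a small protein that reduces disulfides and is itself reduced by TXNRD1. It was the 1 member that differed between the mutants, beside 2.59% of all genes tested that did so (1.86% higher and 0.732% lower in G245S) and 3.50% of those whose mean count reached 100. TXN was at 336, 349 and 359 CPM in WT, 359, 358 and 358 CPM in G245S and 323, 322 and 348 CPM in R273H. All G245S dishes were above all R273H dishes, and WT overlapped both. The log2 fold change of G245S against R273H was 0.11 ± 0.0288 (8.24% higher, edgeR adjusted p = 0.0273). Against WT it was 0.04 ± 0.0291 in G245S (edgeR adjusted p = 0.331) and -0.07 ± 0.0289 in R273H (edgeR adjusted p = 0.0597).

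The TXN call between the mutants was lost without any single G245S dish (edgeR adjusted p = 0.123, 0.137 and 0.0527 without dishes 1, 2 and 3) and without R273H dish 1 (0.172) or dish 2 (0.165). TXN has the shortest coding region of the 9 genes, 105 codons, and removal of each library's trend with coding length and GC content raised its log2 fold change for G245S against WT to 0.13, which was called (edgeR adjusted p = 2.99e-05). For R273H against WT TXN was called without WT dish 1 (log2 fold change -0.10, edgeR adjusted p = 0.0225) or without R273H dish 3 (-0.11, edgeR adjusted p = 0.00919), whereas its value was -0.05 without WT dish 3 and -0.0092 with the trend removed (edgeR adjusted p = 0.257 and 0.80). Its 7 annotated pseudogenes together took 22.3 to 27.9 CPM per library, and how reads shared with them were assigned is not stated in the sources used here.

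SRXN1 (chr20:646615-653200, minus strand), which encodes sulfiredoxin, the enzyme that restores overoxidized peroxiredoxins, had the fewest footprints of the 9 genes and the widest intervals. The dishes held 13.1, 11.7 and 11.1 CPM in WT, 11.9, 13.4 and 11.1 CPM in G245S and 13.2, 12.4 and 11.5 CPM in R273H. The 3 groups overlapped. The 95% interval of the log2 fold change was -0.18 to 0.21 in G245S and -0.14 to 0.24 in R273H, so a change the size of that of TXNRD1 was not detectable at this depth.

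**Figure D3:**
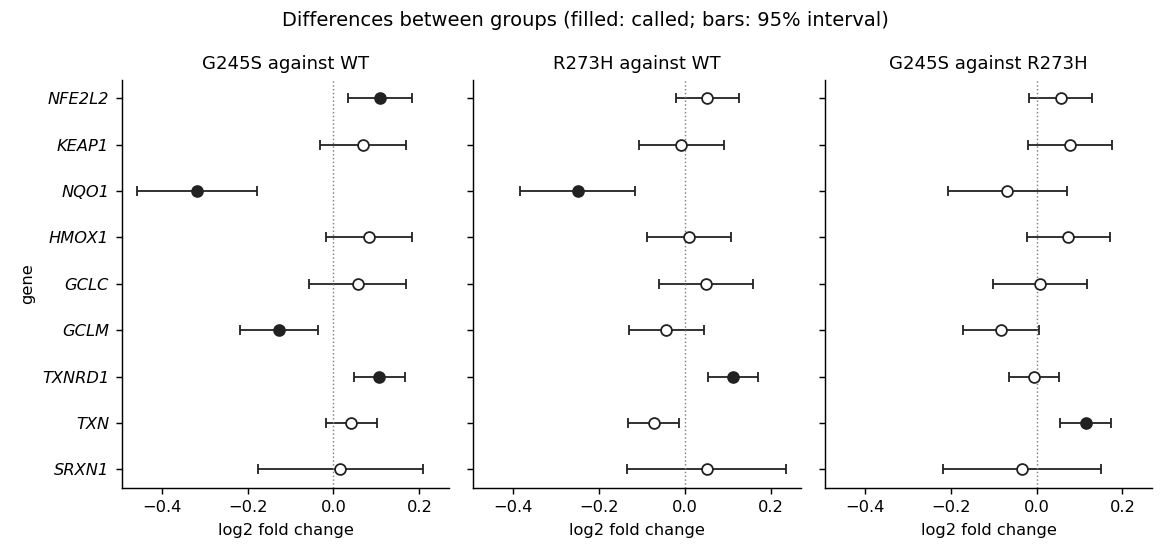
Log2 fold change of footprints (x axis) for the 9 genes (y axis) in the 3 comparisons, with 95% intervals from the edgeR fit. Filled points were called at an adjusted p under 0.05. NQO1 lies at -0.32 and -0.25 and TXNRD1 at 0.11 and 0.11 in the comparisons with WT, and TXN at 0.11 is the single filled point between the mutants.

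Relatives of the members served as a further reading of the same families. Of 8 paralogs, NFE2L3, a factor related to NRF2, was higher in both mutants, by a log2 fold change of 0.33 ± 0.072 in G245S (edgeR adjusted p = 0.00118) and 0.19 ± 0.0709 in R273H (edgeR adjusted p = 0.0405). The R273H call of NFE2L3 was lost with DESeq2 (adjusted p = 0.157) and without WT dish 2 (edgeR adjusted p = 0.0863) or 3 (0.187) or R273H dish 1 (0.147) or 2 (0.118). In R273H the mitochondrial counterparts of the thioredoxin pair were lower, TXNRD2 by a log2 fold change of -0.14 and TXN2 by -0.11. The TXNRD2 call was lost in 8 of 18 alternative settings, among them upper-quartile normalization, DESeq2 and leaving out WT dish 1 (edgeR adjusted p = 0.0999) or 3 (0.134), G245S dish 1 (0.0505) or R273H dish 1 (0.0705) or 3 (0.215). That of TXN2 was lost in 5, among them DESeq2 and leaving out R273H dish 3 (edgeR adjusted p = 0.137), and its value was -0.016 with the length and GC trend removed. In G245S TXNRD2 and TXN2 were at -0.10 and -0.09 and were not called, but TXNRD2 was called there with that trend removed (edgeR adjusted p = 0.0434) and TXN2 with the dish number as a block (0.0348). NFE2, NFE2L1, NQO2, HMOX2 and TXNRD3 were called in neither mutant. None of the 8 paralogs differed between the mutants past the test.

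Over the 9 libraries, the genes with the pattern most like that of NFE2L2 were PPP2R5D, NXN and PPAN. Likeness was the root mean square difference of centered log2 CPM. It was 0.0182, 0.0186 and 0.0216 for these 3 genes beside a median of 0.107 over the 12652 genes compared. Because the 3 were picked for the smallest differences, their place below the median was fixed by that choice and was not tested.

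The wider pathway was described with 6 lists of other genes, 86 in all, of which 81 were tested. Of these, 39 were called in G245S (25 higher and 14 lower than in WT) and 37 in R273H (18 higher and 19 lower), so in neither mutant did the called genes move in 1 direction. Their median log2 fold changes were 0.028 and -0.0030, and the shares called were 48.1% and 45.7% beside 24.7% and 28.8% of all genes tested. Of the genes whose mean count reached 100, 33.1% and 37.6% were called. Between the mutants 9 of the 81 (11.1%) were called, 8 of them higher in G245S, beside 2.59% of all genes tested, of which 368 of 513 called were also higher in G245S, and 3.50% of those whose mean count reached 100. The lists were chosen with earlier results of these data known, so the shares called are described and are no test of the pathway. The genes named below are, up to 3 per list, the called genes with the largest mean change over both mutants.

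**Figure D4:**
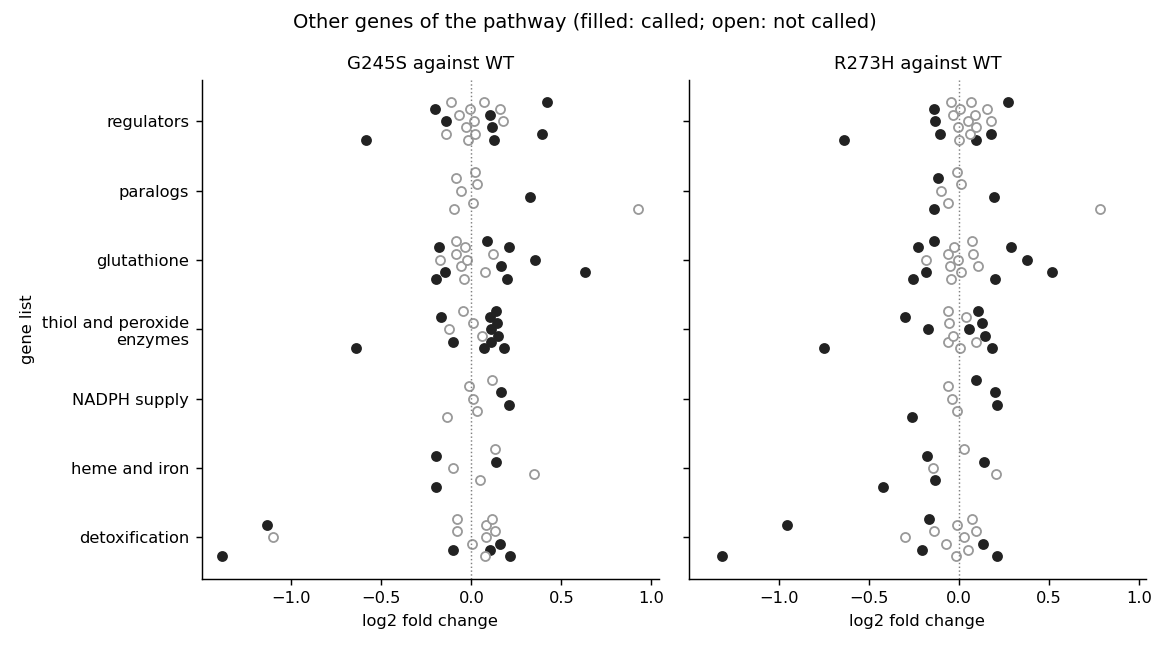
Log2 fold change against WT (x axis) of the other genes of the pathway and of the paralogs, by list (y axis), for G245S (left) and R273H (right). Filled points were called at an adjusted p under 0.05, open points were not, and the vertical offset within a list only separates the points. Filled points lie on both sides of 0 in most lists, and GPX1 (-0.64 and -0.75), AMER1 (-0.59 and -0.64) and SLC7A11 (0.63 and 0.52) are among the points far from 0.

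Among the 19 regulators of NRF2 and its partners, 8 were called in G245S (5 higher, 3 lower). In R273H 7 were called (3 higher, 4 lower). That is 42.1% and 36.8%, beside 24.7% and 28.8% of all genes tested (33.1% and 37.6% of those whose mean count reached 100). AMER1, also known as WTX, a protein that competes with NRF2 for KEAP1, had a log2 fold change of -0.59 ± 0.0638 in G245S and -0.64 ± 0.062 in R273H. MAFK, a small MAF partner of NRF2, was higher by 0.39 ± 0.0804 and 0.27 ± 0.0792 on the log2 scale. Its dishes held 12.3, 13.6 and 11.4 CPM in WT, 16.6, 15.6 and 16.8 CPM in G245S and 15.4, 15.1 and 14.6 CPM in R273H, and neither mutant overlapped WT. BACH2, a repressor that shares the small MAF partners, was called in G245S at 0.42 and not in R273H, where its value was 0.15. The G245S call was lost with DESeq2 (adjusted p = 0.116) and without WT dish 2 (edgeR adjusted p = 0.157) or G245S dish 1 (0.111) or 3 (0.084), and the R273H call of MAFK with DESeq2 (0.0687) and without WT dish 3 (0.0586). The difference between the mutants did not pass the test for BACH2 (edgeR adjusted p = 0.317).

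The glutathione list held synthesis, transferase and export genes, and 9 of its 18 tested members were called in G245S (6 higher, 3 lower) and 8 in R273H (4 higher, 4 lower). SLC7A11, the cystine importer that feeds glutathione synthesis, rose from 10.5, 11.7 and 10.8 CPM in WT to 17.1, 17.2 and 16.6 CPM in G245S and 16.1, 15.3 and 15.7 CPM in R273H. Neither mutant overlapped WT, and the log2 fold changes were 0.63 ± 0.0779 (edgeR adjusted p = 4.7e-07) and 0.52 ± 0.0767 (edgeR adjusted p = 6.99e-06). ABCC4, an exporter of organic anions, was higher by 0.36 and 0.38 on the log2 scale, and the microsomal transferase MGST1 by 0.20 and 0.29. In G245S the importer upstream of glutamate-cysteine ligase was called as higher and the modifier subunit GCLM as lower, and GCLC was not called. The GCLM call held in only 7 of 18 alternative settings, whereas that of SLC7A11 held in all 18.

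In the list of thiol and peroxide enzymes 11 of 15 were called in G245S (8 higher, 3 lower). In R273H 8 were called (5 higher, 3 lower). That is 73.3% and 53.3%, beside 24.7% and 28.8% of all genes tested (33.1% and 37.6% of those whose mean count reached 100). GPX1, the cytosolic selenium-dependent glutathione peroxidase, fell from 149, 158 and 144 CPM in WT to 102, 97.4 and 89.9 CPM in G245S and 85.4, 95.3 and 87.6 CPM in R273H. No mutant dish overlapped WT. The log2 fold change was -0.64 ± 0.0476 in G245S (edgeR adjusted p = 1.47e-08) and -0.75 ± 0.0468 in R273H (edgeR adjusted p = 1.41e-09). PRDX5, a peroxiredoxin found in several compartments, was lower by log2 fold changes of -0.17 and -0.30, and the mitochondrial glutaredoxin GLRX2 was higher by 0.15 and 0.19. The GLRX2 call in G245S was lost in 7 of 18 alternative settings, among them leaving out WT dish 1 (edgeR adjusted p = 0.0919) or 2 (0.0797) or G245S dish 2 (0.0759) or 3 (0.126). Near-identical pseudogenes of GPX1 and other abundant genes in these lists were not examined here.

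NADPH, the electron donor of NQO1, HMOX1 and TXNRD1 reactions, is supplied by the enzymes of a further list, of which 2 of 7 were called in G245S, both higher, and 4 of 7 in R273H (3 higher, 1 lower). The shares called were 28.6% and 57.1%, beside 24.7% and 28.8% of all genes tested (33.1% and 37.6% of those whose mean count reached 100). IDH1 was higher by 0.17 and 0.20 on the log2 scale. ME1 was called in R273H at 0.21 and not in G245S, where it was at 0.12, and PGLS was called in R273H at -0.26 and not in G245S, where it was at -0.14. With the dish number as a block PGLS was called in G245S as well (edgeR adjusted p = 0.0342). For neither ME1 nor PGLS did the mutants differ from each other past the test (edgeR adjusted p = 0.308 and 0.302).

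Among the 7 heme and iron genes 3 were called in G245S (1 higher, 2 lower) and 4 in R273H (1 higher, 3 lower). That is 42.9% and 57.1%, beside 24.7% and 28.8% of all genes tested (33.1% and 37.6% of those whose mean count reached 100). The biliverdin reductases act on the product of HMOX1, and both were lower, BLVRB by log2 fold changes of -0.19 and -0.42 and BLVRA by -0.20 and -0.13. The BLVRA call in R273H was lost without WT dish 2 (log2 fold change -0.087, edgeR adjusted p = 0.123) and with DESeq2. The ferritin heavy chain FTH1 was the called gene that was higher, at 0.14 in each mutant, and was chosen after its values were seen. FECH, which inserts iron into protoporphyrin to form heme, was called in R273H at -0.17 and not in G245S, where it was at -0.10. The R273H call was lost with DESeq2 (adjusted p = 0.0614), and FECH did not differ between the mutants past the test.

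Of the 15 tested detoxification genes 6 were called in G245S (3 higher, 3 lower) and 6 in R273H (2 higher, 4 lower). That is 40.0% in each, beside 24.7% and 28.8% of all genes tested (33.1% and 37.6% of those whose mean count reached 100). The aldo-keto reductases AKR1C3 and AKR1C1, which reduce steroid and other ketones, were lower by log2 fold changes of -1.38 and -1.31 and of -1.14 and -0.95. Both had few footprints, 1.28 ± 0.162 and 1.56 ± 0.450 CPM in WT (SD, n = 3), and the near-identical sequences of this family make the assignment of reads between them uncertain. Without WT dish 2 AKR1C1 was called in neither mutant (edgeR adjusted p = 0.0626 and 0.117). ALDH3A2, a fatty aldehyde dehydrogenase, was higher by 0.21 in each mutant on the log2 scale.

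Genes outside the pathway moved in the same comparisons. Of the 7 markers of the line, 1 was called in G245S (VIM, log2 fold change 0.15) and 3 in R273H (KRT8 0.36, PAX2 0.35 and CDH2 0.12), all higher. Over all genes tested 24.7% were called in G245S (12.6% higher) and 28.8% in R273H (14.2% higher). KRT18, CDH1 and EPCAM were called in neither mutant, and KRT18, the partner keratin of KRT8, was at -0.08 and -0.02. Of the markers of other cell types, COL1A1 was lower in both mutants at -0.21 and -0.24, and LUM was higher in R273H at 0.48. Their part in the results on the NRF2 pathway genes was not tested. No matched RNA-seq and no group without a p53 construct were analysed here, so the values do not separate mRNA level from translation, or a change in the mutants from an effect of WT p53.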

How the data were processed

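The Ribo-seq table deposited by the authors gives expected counts, estimates of the footprints on each gene without scaling for depth or length, for 9 dishes. Per the submitters' notes and the study's methods, reads were trimmed (Trim Galore), filtered for rRNA and aligned to GRCh38 with STAR; the counting tool, annotation, strand and multi-mapping rules are not given in the sources used here. Counts were rounded and fitted in edgeR 4.0.16 (R 4.3.3; robust quasi-likelihood fit after TMM and filterByExpr, two-sided test, group the only term, 9 libraries, 6 residual degrees of freedom) with Benjamini-Hochberg adjustment. The biological coefficient of variation was 2.58%. Intervals are 95% intervals from the fit. CPM used TMM-scaled totals. Ratios were compared per codon by exact permutation (scipy 1.17.1). Of the 63241 genes, 62666 matched the GENCODE annotation by identifier.

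Named genes were the 9 members, their paralogs, p53 targets as a check, up to 3 called genes of each other list by mean size of change, and the 3 genes most like NFE2L2 with a mean count of at least 100. 1 gene of this rule is not reported here. The members and lists were chosen with earlier results of these data known. Alternatives were other normalizations and filters, DESeq2 1.42.0, 2-group fits, leaving out each dish, the dish number as a block, removal of length and GC trends, and glmTreat at 1.2-fold.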

Additional observations from a re-analysis of the deposited data

Results flagged for a closer look

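These genes differed between the mutants themselves past the edgeR threshold. With 3 dishes per group, single outlying dishes were not tested for. TXN, among the 9 NRF2 pathway genes, was higher in G245S than in R273H by a log2 fold change of 0.11. In the wider lists the glutathione transferase GSTP1 was higher in G245S by 0.14, whereas the microsomal transferase MGST2 was lower, at -0.15. Of the peroxide enzymes, PRDX5 was higher in G245S than in R273H by 0.13, PRDX6 by 0.098 and GPX4, the phospholipid hydroperoxide peroxidase, by 0.20. The GPX4 dishes held 132, 128 and 119 CPM in G245S and 113, 110 and 108 CPM in R273H and did not overlap. TKT, a transketolase of the pentose phosphate pathway, was higher by 0.11, and BLVRB by 0.22, the largest of these differences. AKR1B1 was higher by 0.099 and the epoxide hydrolase EPHX1 by 0.13, and these 2 were called in 9 and 11 of 18 alternative settings. TXN was called in 12 of them, PRDX5 and PRDX6 in 13, MGST2 in 14, TKT in 15 and GSTP1, GPX4 and BLVRB in 17.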

How the results depend on the processing

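Under glmTreat at 1.2-fold no member was called in any comparison (0, 0 and 0), and the wider lists fell to 4, 6 and 0 called genes from 39, 37 and 9. DESeq2 called 2 members in G245S and 1 in R273H. Leaving out 1 dish at a time gave 2 to 4 members in G245S, 2 to 3 in R273H and 0 to 1 between the mutants, and 4 to 13 wider genes between the mutants, the lowest without G245S dish 1 or 2 or R273H dish 2. In the ratios no alternative changed the direction.

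Dish numbers are shared between groups, and same-numbered dishes correlated at 0.044 to 0.234 in their deviations. The numbers were not taken as pairs in the main fit, although the highest correlation of every dish was with a dish of its own number. Within the R273H and WT groups, R273H dish 2 correlated at 0.0595 with WT dish 1 and at 0.0437 with WT dish 2. With the replicate block 15 wider genes were called between the mutants, 4, 3 and 1 members were called, and TXN was called in R273H against WT (-0.07, edgeR adjusted p = 0.00881). Over all genes the block gave 5779, 6547 and 1262 calls, DESeq2 3049, 3571 and 358 and glmTreat 547, 693 and 3, against 4900, 5707 and 513. Leaving out 1 dish at a time gave 3899 to 4850 calls in G245S, 4526 to 5829 in R273H and 162 to 712 between the mutants.

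Direction changed only for values near 0 that were not called. The R273H log2 fold change of KEAP1 was 0.0070 with upper-quartile normalization, 0.0018 without a filter, 0.0091 with the length and GC trend removed and 0.0097 with that and the block. For NFE2L1 in R273H these were 0.0069, 0.0016 and, with trend and block, 0.00031. TXNRD1 between the mutants was 0.016 with the trend removed and 0.016 with the block as well. Leaving out 1 dish gave -0.028 to 0.025 for KEAP1 in R273H, -0.0018 to 0.018 for HMOX1 in R273H, -0.026 to 0.042 for GCLC and -0.019 to 0.0087 for TXNRD1 between the mutants, -0.059 to 0.086 for SRXN1 in G245S and -0.11 to 0.030 between the mutants, -0.0048 to 0.044 and -0.036 to 0.011 for NFE2L1 and -0.034 to 0.070 and -0.026 to 0.069 for NQO2 in G245S and R273H. The cause was not tested.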

Other observations

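A few genes of the lists had sizeable values that did not pass the test. NFE2, the founding member of the factor family of NRF2, was at 0.413 ± 0.135 CPM in WT and 0.791 ± 0.161 CPM in G245S (SD, n = 3), with a log2 fold change of 0.92 ± 0.397 and an edgeR adjusted p of 0.0904. In R273H NFE2 was at 0.716 ± 0.242 CPM, with a log2 fold change of 0.79, and was not called either. Its counts were 5 to 24 per library. ABCB6, a porphyrin transporter, was at 0.35 ± 0.139 in G245S (edgeR adjusted p = 0.0698). BACH1, which represses HMOX1, was at -0.11 in G245S and 0.09 in R273H, and the difference between the mutants was -0.21 ± 0.0593 (edgeR adjusted p = 0.0601).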
